A study of Mus musculus with 44 samples.

Results

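The Id genes encode helix-loop-helix proteins that lack the basic region with which related factors hold DNA. An Id protein pairs with an E protein (Tcf3, Tcf4 or Tcf12) or with a tissue basic helix-loop-helix (bHLH) factor and keeps that partner off its DNA sites. The Id genes are classical direct targets of bone morphogenetic protein (BMP) signalling through Smad1, Smad5 and Smad9, and their proteins are associated with proliferating, undifferentiated cells in many tissues, the skeleton among them. The family was taken by gene symbol from the count table as Id1, Id2, Id3 and Id4, which are 4 of 46831 genes.

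SLIM-seq, an m6A immunoprecipitation method for small amounts of RNA, had been applied to skeletal cells sorted from the long bones of C57Bl6 mice (C57BL/6J in the study's methods) at postnatal day 3 (P3). Each population gave 2 input libraries, which measure mRNA, and 2 IP libraries of RNA bound by an m6A antibody. The 8 wild-type (WT) populations were the skeletal stem cell (SSC), the pre-bone cartilage and stromal progenitor (pBCSP) and the bone cartilage and stromal progenitor (BCSP), followed by pro-chondrogenic progenitors (PCP), the Thy subpopulation (THY), the B-cell lymphocyte stromal progenitor (BLSP), the 6C3 subpopulation (6C3) and the hepatic leukemia factor expressing cell (HEC). The last 5 are called downstream populations below. Another 12 libraries labelled Mettl3KO came from SSC, pBCSP and BCSP of Mettl3 fl/fl;Col2a1-Cre mice, in which Cre runs from a promoter of cartilage cells and their progenitors. The study calls its Mettl3 fl/fl control mice WT, and the labels of the WT libraries read wild type without naming the allele. All cells were sorted as CD45-, Ter119- and Tie2- from several litters without regard to sex. The genotype field reads wild type for all 44 libraries, so the genotype of those 12 comes from titles, library names and column names. The study's own assays of the deletion, on RNA and protein, are not used here.

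The Id genes were located on GRCm38 with GENCODE vM21, and the exon length is the union of a gene's exons. Id1 (ENSMUSG00000042745.9) lies at chr2:152736251-152737410 on the plus strand with an exon length of 1160 bases. Id2 (ENSMUSG00000020644.9) lies at chr12:25093799-25097140 on the minus strand with 2438 bases of exon. Id3 (ENSMUSG00000007872.3) lies at chr4:136143497-136145755 on the plus strand with 1791 bases of exon. Id4 (ENSMUSG00000021379.2) lies at chr13:48261228-48266026 on the plus strand with 3849 bases of exon. The start of Id4 is overlapped on the other strand by A330033J07Rik, from 48261228 to 48262623, and by Gm49291, from 48261228 to 48262591. The library method, based on Smart-seq2, does not mark strand, so reads of these genes cannot be told apart there.

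The m6A methyltransferase acts mostly at adenosines inside GGAC, with GGACT as the favoured form. These letters were searched on the strand of each Id transcript, because the IP measures m6A over a whole gene and no single site. Id1 held 3 GGACT sites, of which 1 was coding and 2 were in the 3' UTR. Id2 held 4, of which 1 was coding and 3 were in the 3' UTR. Id3 held 3, with 1 in the 5' UTR and 2 in the 3' UTR. Id4 held 3, all in the 3' UTR. All 4 sites of Id2, the Id gene enriched in the IP of all 16 WT replicates (below), are printed with the first 3' UTR site of each relative, 5' to 3' on the transcript strand with GGACT in capitals.
Id2, coding, chr12:25095770-25095774: gcagatcgccctGGACTcgcatcccacta
Id2, 3' UTR, chr12:25094564-25094568: aatggcatttggGGACTtttttttttctt
Id2, 3' UTR, chr12:25094383-25094387: gttctccggcctGGACTgtgataccgtta
Id2, 3' UTR, chr12:25094080-25094084: agtgaaccttgtGGACTctttaattagag
Id1, 3' UTR, chr2:152737037-152737041: gagggaccagatGGACTccagcccttcag
Id3, 3' UTR, chr4:136144917-136144921: cttgggaccctgGGACTctgggaccctct
Id4, 3' UTR, chr13:48264815-48264819: tatagacccaagGGACTttttatgaagtc
The coordinates are those of GGACT itself. Between the last coding base and the Id2 sites of the 3' UTR lie 18, 199 and 502 bases, whereas 1884 bases lie before the Id4 site. Per kilobase of transcript, GGAC occurred 7.76 times in Id1, 7.62 times in Id2 and 9.39 times in Id3, against 2.86 times in Id4 and a median of 3.94 over 21877 genes. GGACT, which 87.6% of those genes hold at least once, occurred 2.59, 2.03 and 2.35 times per kilobase in Id1, Id2 and Id3 and 0.779 times in Id4, where the median gene had 1.01.

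Promoter windows from 250 bases before to 50 bases after the start site were taken from RefSeq on GRCm38.p6 for Id2, Id3 and Id4, and Id1 was not matched. The letters GGCGCC, a GC-rich element of Smad1 and Smad5 binding that reads the same on both strands, occurred in 11.9% of 32851 such windows. The window of Id2, chr12:25096043-25096342 on the minus strand, held 1 match, that of Id4, chr13:48260866-48261165 on the plus strand, held 1, and that of Id3, chr4:136143572-136143871, held 0. The matches are shown in capitals with 12 bases to each side, 5' to 3' on the gene's strand.
Id2 promoter: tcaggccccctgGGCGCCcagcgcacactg
Id4 promoter: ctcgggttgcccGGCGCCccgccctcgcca

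The libraries held 16480027 to 44046651 counts. Over all genes the 2 replicates of a group correlated at Pearson 0.933 to 0.970 in WT input, 0.906 to 0.929 in Mettl3KO input, 0.846 to 0.906 in WT IP and 0.644 to 0.703 in Mettl3KO IP libraries, so the Mettl3KO IP libraries were the least alike. The targeted gene was checked first. In CPM, counts scaled to a common library size, input Mettl3 was 15.8 and 15.9 for WT SSC, 12.5 and 16.6 for WT pBCSP and 18.6 and 20.3 for WT BCSP. In the libraries labelled Mettl3KO, SSC held 17.0 and 18.8, pBCSP 23.0 and 23.5 and BCSP 16.7 and 18.4. Mettl3 was not lower on average in those libraries: its log2 fold change averaged over the 3 populations was 0.25 (SE 0.15, edgeR quasi-likelihood test with Benjamini-Hochberg adjustment, adjusted p = 0.362). The counts add up all exons, so a deleted exon was not seen apart. The sorted populations were also checked against markers, as summed input CPM. The 12 cartilage genes summed to 109950 to 128350 in WT SSC, pBCSP and BCSP and to 8140 to 103870 in downstream populations. Of 12 endothelial genes, 8 to 12 were detected in the 6 WT input libraries of SSC, pBCSP and BCSP, with sums of 13.4 to 65.0 CPM, and of 14 haematopoietic genes 9 to 11, with sums of 17.1 to 28.5 CPM. Among them Ptprc, which encodes CD45, was at 0 in all 6, and Cdh5 was at 0 in both libraries of SSC and in pBCSP replicate 2 and detected in the other 3.

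Id1, Id2 and Id3 mRNA were higher in SSC, pBCSP and BCSP than in the downstream populations, and Id4 was lower by a small margin that did not hold in all settings. Id1 and Id2 stood 4.28-fold and 4.48-fold higher, Id3 1.85-fold higher, and Id4 1.30-fold lower. In bulk samples, fewer cells that express a gene and less RNA per cell cannot be told apart. All p-values below weigh a difference against the spread between the 2 samples of a group. That spread was pooled over the groups of a fit and shared in part across genes.

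Id2 input mRNA, in CPM of replicates 1 and 2, was 392 and 485 in SSC, 373 and 361 for pBCSP and 553 and 432 for BCSP. Of the downstream populations, PCP held 91.7 and 65.6, THY 97.4 and 84.0, BLSP 80.9 and 96.5, 6C3 62.5 and 87.1 and HEC 151 and 105. The 6 libraries of SSC, pBCSP and BCSP, with a median of 412 CPM, all lay above the 10 downstream libraries, with a median of 89.4 CPM. The log2 fold change between the population means was 2.16 (SE 0.12, adjusted p = 1.4e-09).

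Id1, an early response gene of BMP signalling, had the same split. For its input mRNA SSC held 273 and 352 CPM, pBCSP 266 and 264 and BCSP 307 and 286. Downstream, PCP held 86.2 and 43.0 CPM, THY 48.7 and 53.3, BLSP 61.7 and 68.6, 6C3 25.7 and 76.3 and HEC 113 and 88.4. The lowest of the 6 stem and progenitor libraries, at 264 CPM, was above the highest downstream library, at 113 CPM, and the log2 fold change was 2.10 (SE 0.19, adjusted p = 1.9e-07).

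Id3 stayed high in part of the downstream populations. Its input mRNA was 480 and 598 CPM in SSC, 494 and 513 for pBCSP and 481 and 529 for BCSP. Downstream, PCP held 609 and 266 CPM, THY 265 and 310, BLSP 288 and 384, 6C3 143 and 179 and HEC 217 and 157. The PCP replicates were far apart, and PCP replicate 1 held the highest Id3 value of all 16 WT input libraries, so the 2 sets of populations overlapped. The log2 fold change was 0.89 (SE 0.15, adjusted p = 0.00013).

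Id4, which was far less abundant than the others, had its highest mRNA in PCP. Its input mRNA was 10.9 and 10.5 CPM in SSC, 10.6 and 7.64 for pBCSP and 13.8 and 12.1 for BCSP. Downstream, PCP held 30.4 and 30.6 CPM, THY 14.5 and 21.4, BLSP 13.5 and 15.1, 6C3 12.4 and 8.83 and HEC 4.92 and 4.87. The stem and progenitor libraries lay inside the downstream range. Endothelial genes were also highest in PCP, where their 12 genes summed to 249 and 222 CPM and Cdh5, a defining gene, was at 8.35 and 10.9 CPM, and their part in the Id4 level was not tested. The log2 fold change was −0.38 (SE 0.14, adjusted p = 0.0329). That call was lost with each of 11 of the 16 input libraries left out in turn, namely both of SSC, both of BLSP, both of HEC and replicate 2 of pBCSP, BCSP, PCP and THY and replicate 1 of 6C3, where the log2 fold change was −0.39 to −0.29 and the largest adjusted p was 0.144. It was also lost without the filter on low counts (−0.37, adjusted p = 0.112).

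**Figure D1:**
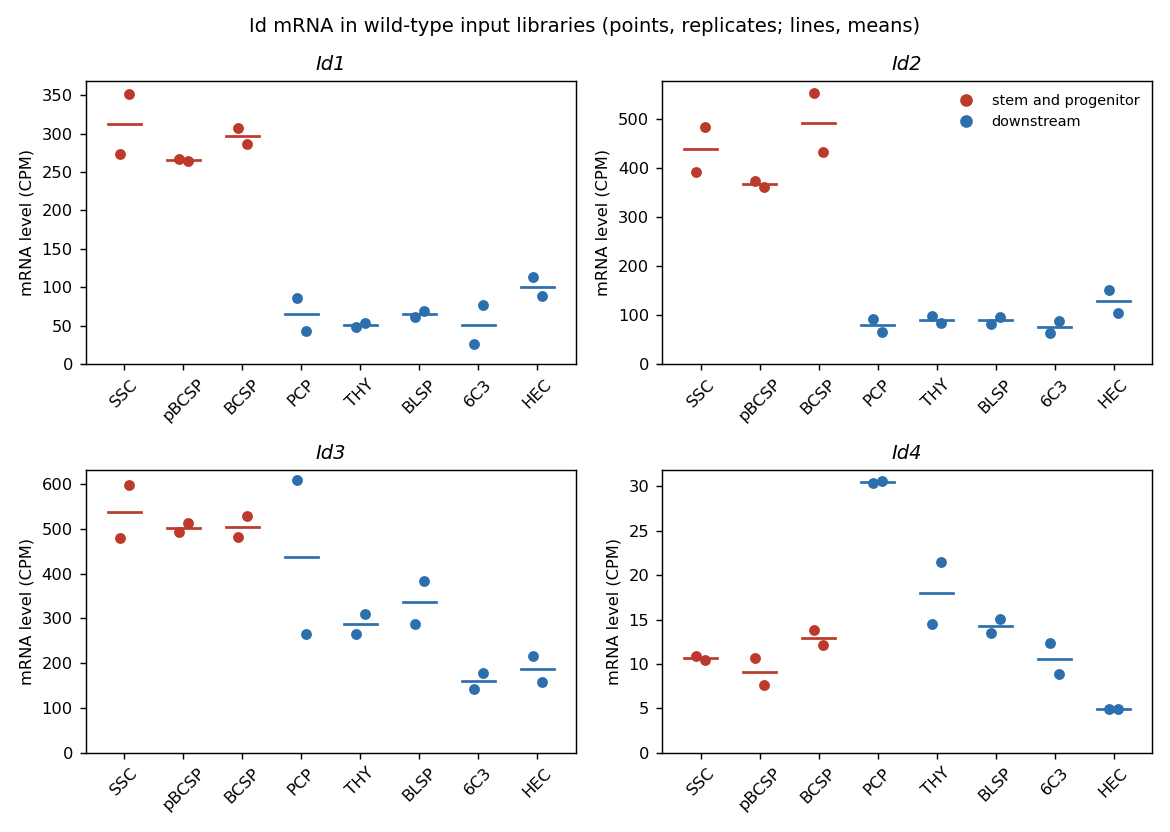
Input mRNA of Id1, Id2, Id3 and Id4 in the 8 WT populations, in CPM on linear axes from 0 that differ between the 4 panels, where points are the 2 replicates and short lines their mean. Id1 and Id2 separate SSC, pBCSP and BCSP from the other populations, Id3 overlaps between them, and Id4 peaks in PCP at 30.5 CPM.

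Across many genes the 2 sets of populations were far apart: of 20060 genes tested, 23.1% were higher and 28.3% lower in SSC, pBCSP and BCSP at an adjusted p under 0.05. The 3 higher Id genes and the 1 lower Id gene therefore stand on a background in which a call is common. Across the 8 populations without any split, 40.1% of genes differed, and so did Id1 (adjusted p = 2.9e-05), Id2 (2.3e-07), Id3 (0.0012) and Id4 (3.4e-05). The highest population mean exceeded the lowest 6.14-fold for Id1, 6.59-fold for Id2, 3.35-fold for Id3 and 6.23-fold for Id4.

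In order of mean CPM, Id1 ran from SSC at 313 over BCSP at 297 and pBCSP at 265 to HEC at 101, BLSP at 65.1, PCP at 64.6, 6C3 at 51.0 and THY at 51.0. Id2 ran from BCSP at 493 over SSC at 438 and pBCSP at 367 to HEC at 128, THY at 90.7, BLSP at 88.7, PCP at 78.7 and 6C3 at 74.8. HEC thus held the highest mean of the downstream populations for these 2 genes. Id3 ran from SSC at 539 over BCSP at 505, pBCSP at 503, PCP at 437, BLSP at 336 and THY at 288 to HEC at 187 and 6C3 at 161. Id4 ran from PCP at 30.5 over THY at 18, BLSP at 14.3, BCSP at 13.0, SSC at 10.7, 6C3 at 10.6 and pBCSP at 9.14 to HEC at 4.90. HEC therefore held the lowest Id4 mean of the 8 populations. Of the 28 steps between neighbours in these orders, 3 passed the test, each from pBCSP to HEC: for Id1 (adjusted p = 0.0230), Id2 (0.00091) and Id4 (0.0465). Between pBCSP and HEC 18.4% of all genes differed at an adjusted p under 0.05. No step passed for Id3. Of the 28 pairs of populations, 15 differed for Id1, 15 for Id2, 9 for Id3 and 12 for Id4 at an adjusted p under 0.05, while the share of all genes that differed ran from 0.00997% to 29.7% over the pairs.

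Levels of different genes can be set side by side only per length. In SSC, the mean level was 270 CPM per kilobase for Id1, 180 for Id2, 301 for Id3 and 2.77 for Id4. Among 15428 protein-coding genes of SSC ranked by that level, Id3 stood in the top 0.882%, Id1 in the top 0.953% and Id2 in the top 1.59%, and Id4 in the top 44.6%. In 6C3, Id3 was in the top 3.21%, Id1 in the top 6.51% and Id2 in the top 9.39%. Of the summed Id level per kilobase in SSC, 40.0% was Id3, 35.8% Id1, 23.9% Id2 and 0.374% Id4. In PCP, Id3 made up 70.6%, Id1 16.5%, Id2 10.2% and Id4 2.66%. THY and BLSP had a like makeup, with Id3 at 65.1% and 65.9%, while HEC, with Id3 at 42.6%, had shares near those of SSC. The summed Id mRNA was 1144 to 1445 CPM in the 6 stem and progenitor libraries and 243 to 817 CPM in the 10 downstream libraries.

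**Figure D2:**
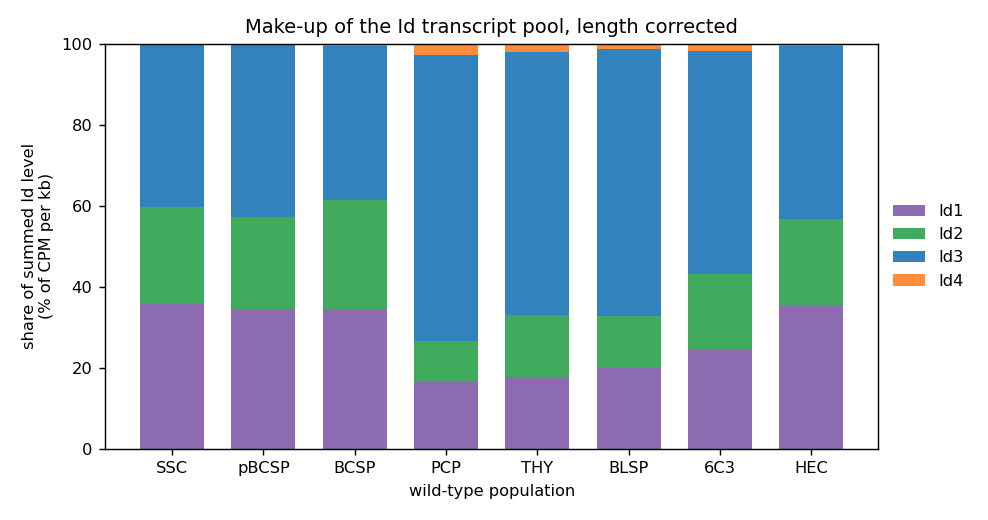
Share of each Id gene, in percent, in the summed Id mRNA level per kilobase of exon, for the 8 WT populations, as stacked bars of group means. Id3 makes up 38.0% to 42.4% in WT SSC, pBCSP and BCSP and 70.6% in PCP.

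The genes closest to each Id gene were found by the Pearson correlation of mean log2 CPM over the 8 WT populations, among 5053 genes with a mean of at least 10 CPM and a log2 range of at least 1. The points share libraries and most genes separate the same populations, so the values are a description. Id1 and Id2 were close to each other, at 0.988, and Id2 ranked 8 of 5053 among the genes nearest Id1. Id3 correlated with Id1 at 0.734 and with Id2 at 0.721. Id4 correlated with Id1 at −0.331, with Id2 at −0.309 and with Id3 at 0.350. The 5 genes nearest Id1 were Ube2b (0.994), a ubiquitin-conjugating enzyme, Fosb (0.991), an AP-1 subunit, 2510002D24Rik (0.991), Rbm27 (0.990) and Pex3 (0.989), a peroxisome assembly factor. Those nearest Id2 were Emc6 (0.998), a subunit of a membrane protein insertase, Ube2b (0.994), Sdf2 (0.994), Rpl37 (0.993), a ribosomal protein, and Sgsm3 (0.992). Nearest Id3 were Rrad (0.987), a small GTPase, Jun (0.984), an AP-1 subunit, Ddit3 (0.981), a stress-induced transcription factor, Apex1 (0.976), a DNA repair enzyme, and Deptor (0.966), an mTOR inhibitor. Nearest Id4 were Epdr1 (0.981), Stambpl1 (0.976), a deubiquitinase, Svep1 (0.975), an extracellular matrix protein, Nrp1 (0.947), a co-receptor for VEGF and semaphorins, and Mgst1 (0.936), a glutathione transferase.

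The E proteins, the partners that Id proteins hold, were measured in the same contrast of SSC, pBCSP and BCSP over downstream populations, in which the median gene had a log2 fold change of −0.11. Tcf3 was lower, with a log2 fold change of −1.51 (SE 0.13, adjusted p = 1.6e-07). Tcf12 was lower, at −1.17 (SE 0.15, adjusted p = 6.8e-06). Tcf4 was higher, at 0.32 (SE 0.10, adjusted p = 0.0120). Of 27 listed tissue bHLH partners, 17 were tested, 1 was higher and 5 were lower, against 23.1% higher and 28.3% lower among all genes. The farthest were Myod1 of muscle (−6.04), Msc (−4.27), the tendon factor Scx (−4.10) and Tcf15 (−3.59). Over the 16 WT input libraries Myod1, Msc and Tcf15 had means of only 0.507, 1.11 and 0.487 CPM, and Scx of 29.8 CPM. The 1 higher partner was Atoh8 (below), with a mean of 26.8 CPM. Of 10 tested Hes, Hey and Bhlhe repressors, which are bHLH proteins that bind DNA, 3 were higher and 4 lower, among them Hey2 (−4.48), Helt (−2.44), Hey1 (2.23) and Bhlhe22 (−2.12). In the same libraries Hey2, Helt and Bhlhe22 had means of only 0.973, 1.33 and 0.735 CPM, and Hey1 of 12.1 CPM.

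BMP pathway genes were called in both directions, as were all genes, of which 23.1% were higher and 28.3% lower. Of 9 tested BMP ligands, 5 were higher and 1 lower in SSC, pBCSP and BCSP, with Bmp8a (3.06), Bmp7 (2.2), Bmp3 (1.5) and the joint ligand Gdf5 (0.99) farthest on the log2 scale. Of 11 tested receptors and co-receptors, none was higher and 6 were lower, led by the type 2 receptor Acvr2b (−1.49), the type 1 receptor Acvrl1 (−1.26), Rgma (−0.96) and Rgmb (−0.92). Acvr2b had a mean of only 1.24 CPM over the 16 WT input libraries. Of 4 Smads, Smad9 was higher (1.94) and Smad1 (−0.97) and Smad5 (−0.68) were lower. Smad9 had a mean of 3.14 CPM in these libraries, against 30.2 CPM for Smad1 and 53.3 CPM for Smad5. Of 20 tested inhibitors, 7 were higher and 8 lower, among them the secreted antagonists Sost (−3.86), Fstl1 (−1.75) and Fst (−1.70). Sost was near the floor, with a mean of 0.217 CPM, against 1132 CPM for Fstl1 and 31.35 CPM for Fst. Of other genes known as BMP targets, 8 of 17 tested were higher and 4 lower, with Hey1 (2.23), Atoh8 (2.17), Zfp423 (−1.99) and Dlx6 (−1.73) farthest. Dlx6 had a mean of only 1.16 CPM.

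In the same contrast 23.1% of all genes were higher and 28.3% lower, which is the background for the counts that follow. Of 5 tested Cdkn genes, cell cycle inhibitors that E proteins can activate, 1 was higher and 4 were lower in SSC, pBCSP and BCSP. The higher gene was Cdkn1a, the most abundant of the 5. Its mean over the WT input libraries was 1312 CPM, against 5.05 to 534 CPM for the others. The farthest were Cdkn1b (−1.64), Cdkn2c (−1.57), Cdkn1c (−1.57) and Cdkn2b (−1.0) on the log2 scale. Of 7 tested genes of Id protein turnover, the deubiquitinase Usp1 (−2.06) and the anaphase-promoting complex activator Fzr1 (−0.79) were lower, and Cops5 (0.34), of the COP9 signalosome, was higher.

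Markers of other cell types moved with the same split of populations, in which 23.1% of all genes were higher and 28.3% lower. All 12 cartilage genes were higher, led by Matn1 (7.41), Ihh (6.2), Col10a1 (5.60) and Col9a2 (3.54). Of 10 osteoblast genes 6 were higher and 1, Col1a1 (−3.66), lower, with Bglap (2.31), Ibsp (1.78) and Bglap2 (1.12) next. Col1a1 was the most abundant of the list, and the summed level ran the other way from the count. It was 8018 to 15771 CPM in the stem and progenitor libraries against 62757 to 142110 CPM downstream. Of 13 tested haematopoietic genes 2 were higher and 7 lower, among them Ptprc (−6.47), Hbb-bs (−6.06) and Hba-a2 (−5.53), and the summed level of the list was 17.1 to 28.5 CPM in the stem and progenitor libraries against 30.4 to 161 CPM downstream. Of 12 endothelial genes 2 were higher and 3 lower, among them Esam (−2.36), Flt1 (−2.33), Vwf (−1.35) and Cldn5 (1.22), with summed levels of 13.4 to 65.0 and 34.6 to 249 CPM. Of 7 tested muscle genes 2 were higher, Tnnt3 (2.72) and Mylpf (0.87), and 2 lower, Myod1 (−6.04) and Des (−2.07). Ptprc and Myod1 were near the floor, with means of 0.252 and 0.507 CPM over the 16 WT input libraries. Of the 7 genes of the sort 1 was higher and 4 lower, with Ptprc (−6.47), Thy1 (−5.35), Enpep, which encodes 6C3, (−1.83) and Cd200 (1.26) farthest. Their part in the Id differences was not tested.

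In the IP libraries, Id2 was the Id gene enriched in every WT population. The IP to input ratio is given as the log2 difference of CPM between the IP and the input library of the same replicate. For Id2, replicates 1 and 2 gave 1.13 and 1.62 in SSC, 1.62 and 1.83 for pBCSP, 1.41 and 1.76 for BCSP and 1.37 and 1.62 for PCP. THY gave 0.78 and 1.11, BLSP 1.08 and 0.93, 6C3 2.0 and 1.61 and HEC 0.65 and 1.37. All 16 values were above 0 and 13 were above 1.

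By the edgeR fit within each population, the IP enrichment of Id2, as a log2 fold change, was 1.51 in SSC (SE 0.32, adjusted p = 0.0467), 1.81 in pBCSP (SE 0.13, adjusted p = 0.0081), 1.61 in BCSP (SE 0.21, adjusted p = 0.0419) and 1.43 in PCP (SE 0.26, adjusted p = 0.0234). It was 0.97 in THY (SE 0.17, adjusted p = 0.0079), 0.94 in BLSP (SE 0.14, adjusted p = 0.0058), 1.79 in 6C3 (SE 0.26, adjusted p = 0.0040) and 1.05 in HEC (SE 0.20, adjusted p = 0.0050). The adjusted p was thus under 0.05 in all 8 populations, where that rule called 4.14%, 9.15%, 0.848%, 4.85%, 11.1%, 11.5%, 10.8% and 15.4% of genes higher in IP, in the order above. The study, which used DESeq2, set the threshold for an m6A-tagged mRNA at a log2 fold change above 1 and an unadjusted p under 0.05. By that threshold in the edgeR fit, Id2 was tagged in 6 of the 8 populations, all but THY and BLSP. With DESeq2 in place of edgeR it was tagged in THY too. Of all genes tested, 10.4% were tagged in SSC, 12% in pBCSP and 6.67% in BCSP, and PCP had 10.6%, THY 12.4%, BLSP 12.4%, 6C3 14.5% and HEC 13.5%. In HEC and THY the log2 fold change of Id2 lay so near 1 that single libraries decided the tag: it was 0.91 without HEC IP replicate 2, 0.77 without HEC input replicate 2 and 1.08 without THY input replicate 1. As a relative m6A level, the Z-score of DESeq2's Wald statistic over the genes of a population, Id2 stood between 1.65 in HEC and 3.84 in pBCSP, above at least 95.2% of genes in each population. That statistic is a log2 fold change over its standard error. By the edgeR log2 fold change alone, Id2 stood lower, at percentile 75.9 in BLSP, 77.6 in THY, 80.0 in HEC and 84.7 in PCP. It stood at 88.4 in SSC, 88.4 in 6C3, 92.41 in BCSP and 92.45 in pBCSP.

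Id4, the least abundant Id gene, was the one whose ratio varied most. Among all genes tested, its fitted log2 range of 1.84 over the 8 populations stood only at percentile 36.9. Its log2 ratio in replicates 1 and 2 was 1.38 and 1.48 in SSC, 0.64 and 1.89 for pBCSP, 0.31 and 1.25 for BCSP and 0.29 and −0.90 for PCP. THY gave −0.25 and 0.41, BLSP −0.03 and 0.93, 6C3 −0.30 and −0.08 and HEC 1.07 and 0.92. The replicates of pBCSP and of PCP lay more than 1 apart, and PCP, THY, BLSP and 6C3 held the values below 0. In the edgeR fit its enrichment, as a log2 fold change, was 1.53 in SSC (SE 0.32, adjusted p = 0.0461), 1.38 in pBCSP (SE 0.39, adjusted p = 0.0618) and 1.07 in HEC (SE 0.33, adjusted p = 0.0388), and these 3 populations met the threshold of the study. It was 0.87 in BCSP (SE 0.43, adjusted p = 0.277). The tag of Id4 rested on single libraries outside SSC. It was lost in pBCSP without IP replicate 2 (0.93) or input replicate 2 (1.14, unadjusted p = 0.0817) and in HEC without IP replicate 1 (0.87), input replicate 1 (1.05, unadjusted p = 0.0865) or input replicate 2 (1.02, unadjusted p = 0.0944), and gained in BCSP without IP replicate 1 (1.20).

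Id1 and Id3 were tagged in no WT population. The log2 ratio of Id1 ran from −0.43 to 1.54 over the 16 replicates, with a median of 0.23, and that of Id3 from −0.28 to 1.19, with a median of 0.50. Id3 was above 0 in 14 of 16 replicates and Id1 in 12. Id3 passed an adjusted p under 0.05 in pBCSP, with a log2 fold change of 0.74 (SE 0.13, adjusted p = 0.0187), and in 6C3, with 0.90 (SE 0.26, adjusted p = 0.0358). Without 6C3 input replicate 2 both would be tagged in 6C3, Id1 at 1.56 and Id3 at 1.00, and without PCP input replicate 1 Id3 would be tagged in PCP at 1.13. The GGACT density and the IP enrichment did not run in the same order, since Id1 held the highest GGACT density of the 4 genes and was tagged nowhere. Among the E proteins none was tagged in any population. Tcf3 was lower in IP than in input, with log2 fold changes of −2.70 to −1.38 and an adjusted p under 0.05 in 6 of 8 populations, where that rule called 5.27%, 10.9%, 2.31%, 7.48%, 14.9%, 16%, 15.3% and 17.8% of genes lower in the order above, while Tcf4 ranged from −0.21 to 0.64 and Tcf12 from 0.03 to 0.85.

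**Figure D3:**
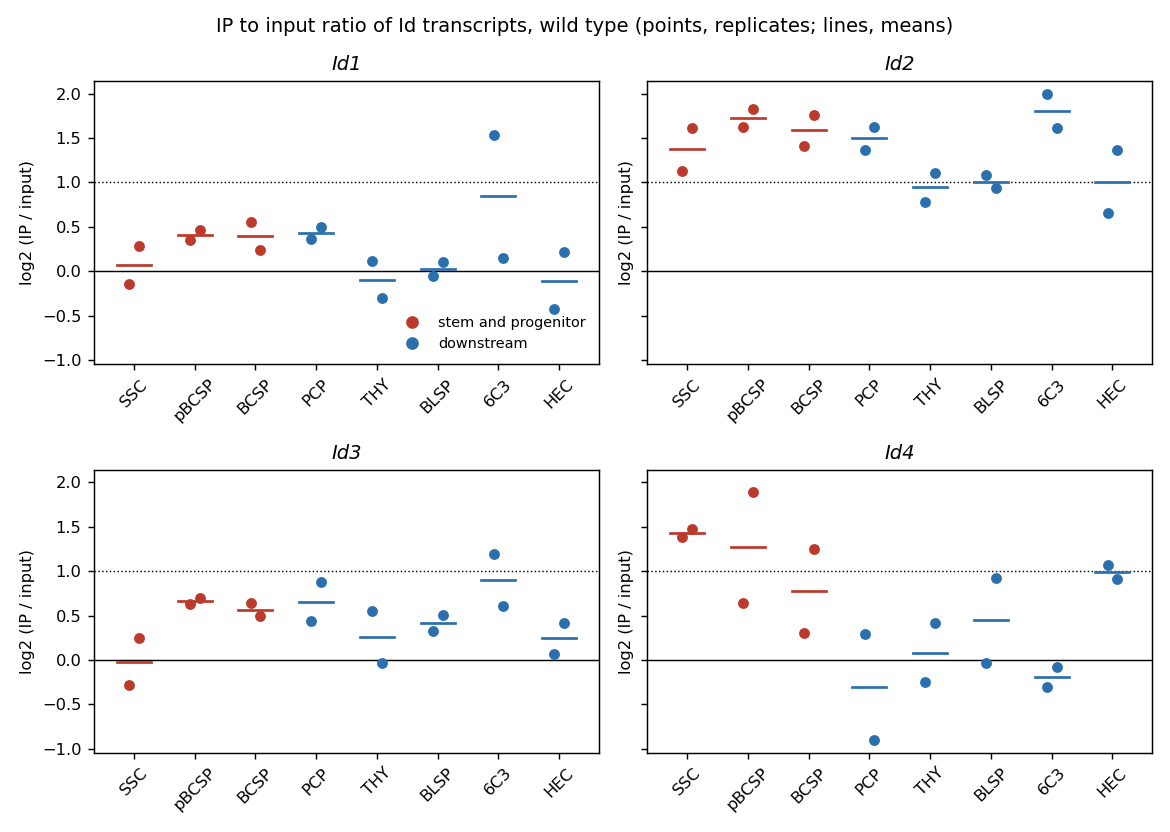
Log2 ratio of IP over input CPM of each Id gene in the 8 WT populations, with points for the 2 replicates and short lines for their mean, and lines at 0 and at the threshold of 1. Id2 is above 0 in all 16 replicates, and Id4 ranges from −0.90 in PCP to 1.89 in pBCSP.

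Between populations, the ratio of no Id gene differed at an adjusted p under 0.05 in the unpaired edgeR test over all 8, in which 0.485% of 25365 genes passed. The adjusted p was 1 for Id1, 0.472 for Id2, 1 for Id3 and 0.504 for Id4, and the unadjusted p was 0.0222 for Id2 and 0.0264 for Id4. With the IP and the input library of a replicate treated as a pair, which is how the cells were split, Id2 passed (adjusted p = 0.0102, with a log2 range of 0.98 between populations).

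In SSC, pBCSP and BCSP over the downstream populations, the log2 ratio of Id4 was higher by 1.11 (SE 0.32, adjusted p = 0.0389), where 3.06% of genes were higher and 1.77% lower. Its 6 stem and progenitor values, 0.31 to 1.89, overlapped the 10 downstream values, −0.90 to 1.07. Id2 was at 0.53 (SE 0.18, adjusted p = 0.0837) unpaired, and with the pairing it passed at 0.51 (adjusted p = 0.0099). Id1 was at 0.32 (SE 0.26) and Id3 at 0.13 (SE 0.23), and the sign of Id3 flipped under DESeq2 and under its size factors (−0.03 each). Of the genes called in this contrast 63.3% were higher, against 40.5% with those size factors, which moved the median gene by −0.16, 40.8% without the filter on low counts and 38.4% by DESeq2. The Id4 call was lost with those size factors (0.95, adjusted p = 0.0931) and without the filter (0.97, adjusted p = 0.0834). It was also lost without the IP and input pair of SSC replicate 2, pBCSP replicate 1 or 2, BCSP replicate 2, PCP replicate 2, BLSP replicate 1, 6C3 replicate 1 or HEC replicate 1 or 2, at 0.90 to 1.18 with a largest adjusted p of 0.20. Id2 passed without the pair of SSC replicate 1 (0.61, adjusted p = 0.0323) or of 6C3 replicate 1 (0.58, adjusted p = 0.0438). The E proteins went different ways, with Tcf3 at 0.80 (adjusted p = 0.0476), Tcf4 at −0.59 (adjusted p = 0.0326) and Tcf12 at 0.58 (adjusted p = 0.136).

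Id2 and Id3 mRNA fell in the libraries labelled Mettl3KO when SSC, pBCSP and BCSP were averaged, and Id1 and Id4 did not pass that test. The study had already named Id2, from this same series, among the m6A-tagged genes with lower mRNA in Mettl3KO SSC. Id2 input mRNA was 392 and 485 CPM in WT SSC and 174 and 248 CPM in SSC labelled Mettl3KO, a mean of 48.1% of WT. It was 373 and 361 CPM in WT pBCSP against 121 and 259 CPM, or 51.8% of WT. In BCSP it was 553 and 432 CPM in WT against 154 and 235 CPM, or 39.4% of WT. In each population both Mettl3KO libraries lay below both WT libraries. The averaged log2 fold change of Id2 was −1.10 (SE 0.19, adjusted p = 0.0082).

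Id3 was 480 and 598 CPM in WT SSC and 183 and 318 CPM in SSC labelled Mettl3KO, or 46.5% of WT. In pBCSP it was 494 and 513 CPM in WT and 197 and 523 CPM in the other group, so the groups overlapped. In BCSP it was 481 and 529 CPM against 183 and 291 CPM, or 46.9% of WT. The averaged log2 fold change of Id3 was −0.88 (SE 0.23, adjusted p = 0.0424).

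Id1 was 273 and 352 CPM in WT SSC against 192 and 255 CPM, 266 and 264 CPM in WT pBCSP against 142 and 299 CPM, and 307 and 286 CPM in WT BCSP against 154 and 204 CPM. The groups overlapped in pBCSP and were apart in SSC and BCSP, and the averaged log2 fold change was −0.48 (SE 0.18, adjusted p = 0.135). Id4 was 10.9 and 10.5 CPM in WT SSC against 6.66 and 5.53 CPM, 10.6 and 7.64 CPM in WT pBCSP against 0.908 and 9.62 CPM, and 13.8 and 12.1 CPM in WT BCSP against 2.98 and 6.17 CPM. The 2 pBCSP libraries labelled Mettl3KO rested on 30 and 304 Id4 counts, and the averaged log2 fold change was −1.02 (SE 0.43, adjusted p = 0.187). In the averaged contrast 2.72% of 18655 genes were lower and 3.75% higher at an adjusted p under 0.05.

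**Figure D4:**
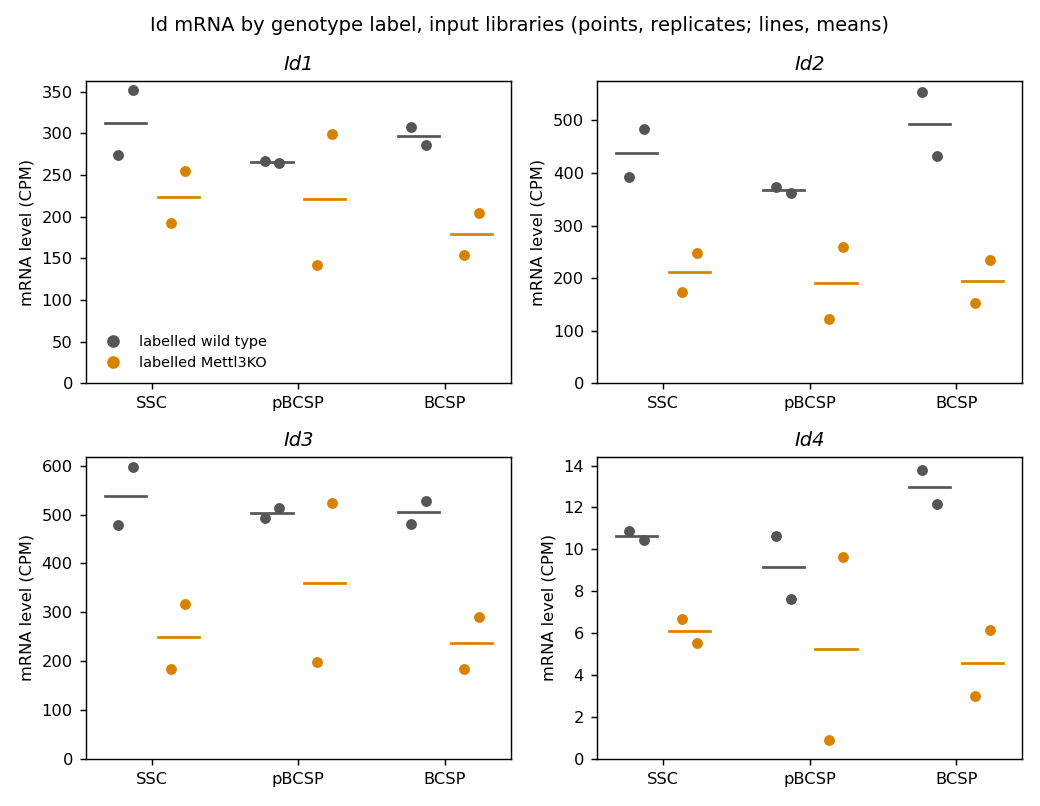
Input mRNA of the 4 Id genes in CPM in SSC, pBCSP and BCSP of WT and of libraries labelled Mettl3KO, on linear axes from 0 that differ between genes, with points for the 2 replicates and short lines for their mean. Id2 is below WT in all 6 libraries labelled Mettl3KO, and replicate 2 of pBCSP lies far above replicate 1 for each Id gene.

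A single library had a large part in these averages. Replicate 2 of pBCSP labelled Mettl3KO held a summed Id level of 1091 CPM and replicate 1 of 462 CPM, against 555 and 826 CPM in SSC and 494 and 736 CPM in BCSP with that label. Without that replicate 2, the averaged log2 fold change was −0.69 for Id1 and −1.86 for Id4, against −0.48 and −1.02 with all 12 libraries. Id2 passed with each of the 12 libraries left out, at −1.32 to −0.95 with a largest adjusted p of 0.0224. Id3 lost its call in 8 of these 12 cases, namely without either WT replicate of SSC, pBCSP or BCSP or without Mettl3KO replicate 1 of SSC or BCSP, at −0.93 to −0.76 with a largest adjusted p of 0.0992.

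Within single populations, 0 genes passed an adjusted p under 0.05 by edgeR in SSC, pBCSP or BCSP, while 7.07%, 4.48% and 5.72% of genes were lower by the study's threshold for differential expression, an absolute log2 fold change above 0.5 at an unadjusted p under 0.05. At an unadjusted p under 0.05, edgeR gave 1177, 623 and 1188 higher and 1186, 718 and 935 lower genes, and DESeq2 called 661, 158 and 548 genes at an adjusted p under 0.05. In SSC, Id2 was at −1.05 (SE 0.24, unadjusted p = 0.0029) and Id3 at −1.10 (SE 0.29, unadjusted p = 0.0065), and both met that threshold, while Id1 was at −0.48 and Id4 at −0.80. In BCSP all 4 met it, with Id1 at −0.73, Id2 at −1.35 (SE 0.27, unadjusted p = 0.0012), Id3 at −1.09 (SE 0.26, unadjusted p = 0.0034) and Id4 at −1.5 (SE 0.47, unadjusted p = 0.0137). In pBCSP only Id2 met it, at −0.93 (SE 0.37, unadjusted p = 0.0485). DESeq2 gave Id2 an adjusted p of 0.0023 for SSC, 0.270 for pBCSP and 4e-05 for BCSP, and Id3 one of 0.0053 in SSC and 0.0014 in BCSP.

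Single libraries decided several of these calls. In pBCSP without Mettl3KO replicate 1, Id2 was at −0.49, Id1 at 0.19, Id3 at 0.07 and Id4 at 0.09. Without Mettl3KO replicate 2 of pBCSP, Id1 was at −0.89, Id3 at −1.34 and Id4 at −3.32. Without WT replicate 1 or 2 of pBCSP, Id2 was at −0.93 and −0.94 and lost its call. Id1 met the threshold in SSC without Mettl3KO replicate 2 (−0.71) and missed it in BCSP without Mettl3KO replicate 1 (−0.55), and Id4 missed it in BCSP without WT replicate 1 (−1.41). The genotype difference of no Id gene differed between the 3 populations, where the adjusted p was 0.996 to 1, the unadjusted p was 0.458 to 0.728 and 0 of 18655 genes passed by edgeR, with 839 at an unadjusted p under 0.05. The populations' own values were therefore not told apart.

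**Figure D5:**
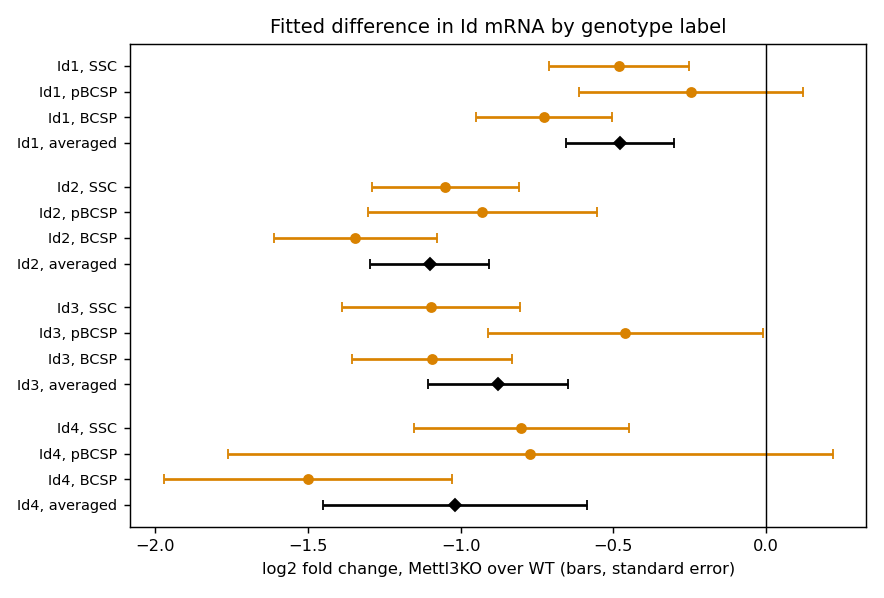
Log2 fold change of input mRNA, Mettl3KO over WT, for each Id gene in SSC, pBCSP and BCSP and averaged over them, with points for the edgeR estimate and bars for 1 standard error. All points are below 0, and the averaged values run from −1.10 for Id2 to −0.48 for Id1.

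The share of Id2 in the summed Id level per kilobase was 23.9%, 22.7% and 27.1% in WT SSC, pBCSP and BCSP and 20.6%, 16.8% and 21.6% with the label Mettl3KO. The share of Id1 was 35.8%, 34.5% and 34.4% in WT and 46.3%, 41.2% and 42.5% with that label. Id1 thus took a larger share in each of the 3 populations.

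Partners and BMP pathway genes were counted in the averaged contrast, in which 3.75% of all genes were higher and 2.72% lower and the median gene had a log2 fold change of −0.05. No E protein passed, with Tcf3 at −0.11, Tcf4 at −0.33 (adjusted p = 0.104) and Tcf12 at −0.15. Of 15 tested tissue bHLH partners Atoh8, itself a known BMP target, was lower at −1.12 (SE 0.21, adjusted p = 0.0105). No Hes, Hey or Bhlhe gene of 10, no receptor of 11, no Smad of 4 and no Cdkn gene of 5 passed. Of 9 ligands Bmp7 was lower at −0.57 (adjusted p = 0.0300). Of 18 tested inhibitors Smad7 (−0.62), the inhibitory Smad that BMP and TGF-beta signals induce, and the antagonist Grem1 (−0.63) were lower and Chrdl1 (0.87) was higher. Of 16 other BMP targets Atoh8 and Smad7 were lower and Msx1 (0.59) was higher. Of 7 turnover genes Wdr48 (0.59), the cofactor of Usp1, was higher.

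Markers of other cells moved in this contrast too, in which 3.75% of all genes were higher and 2.72% lower. Of 11 tested haematopoietic genes 3 globin genes were higher, Hbb-bs (3.92), Hba-a2 (3.85) and Hba-a1 (3.59), and of 12 endothelial genes Flt1 (1.37) and Egfl7 (1.13) were higher. The summed haematopoietic level was 17.1 to 28.5 CPM in the 6 WT libraries and 64.2 to 70.4, 36.2 to 63.2 and 36.8 to 40.9 CPM in SSC, pBCSP and BCSP labelled Mettl3KO. Ptprc was at 0 in 5 of those 6 libraries and had 70 counts in pBCSP replicate 2. The endothelial sum was 13.4 to 65.0 CPM in WT and 47.6 to 57.8, 22.0 to 25.2 and 44.9 to 83.1 CPM in the others. Of 12 cartilage genes Ihh (1.05) was higher, and none of 5 muscle, 10 osteoblast and 6 sort genes passed. Their part in the Id differences was not tested.

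The IP to input ratio of no Id gene differed between the label Mettl3KO and WT in SSC, pBCSP or BCSP, with adjusted p of 0.704 to 1 and unadjusted p of 0.214 to 0.997 over the 12 tests. By edgeR 0 genes of any kind passed, and at an unadjusted p under 0.05 the ratio was lower for 11.3%, 9.87% and 7.82% of genes and higher for 3.26%, 2.06% and 2.49%. DESeq2 called 1755, 983 and 717 genes and no Id gene. For Id2 the log2 ratio of libraries labelled Mettl3KO was 0.88 and 1.47 in SSC, 1.93 and 1.19 for pBCSP and 1.53 and 1.10 for BCSP. Its difference from WT was −0.14 (SE 0.60), −0.33 (SE 0.48) and −0.30 (SE 0.34), and the ratio was above 0 in all 6 libraries with that label. The libraries were scaled to a common size, so the ratio sets Id2 against the other transcripts. A loss of m6A shared by most transcripts would not be seen in it. For Id4 the log2 ratio was 0.76 and 2.28 in SSC, 4.11 and 1.70 for pBCSP and 2.84 and 0.27 for BCSP, with replicates more than 1 apart in each population. For Id1 it was 0.36 and 0.79, 0.81 and −0.55, and 0.14 and −0.14 in the same order. For Id3 it was 0.65 and 0.60, 1.44 and 0.08, and 0.45 and 0.64. No difference in the ratio of an Id gene was found, which does not show that the ratios were alike.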

How the data were processed

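Counts were deposited by the authors, who trimmed reads with fastp 0.20.1, aligned them to GRCm38 with HISAT2 2.2.1 and counted reads per gene with featureCounts 2.0.1, and the values are whole numbers without normalization. The strand setting is not given in the sources used here. Of 46959 entries, 128 with date-like names were left out, which took up to 0.390% of a library. Tables of the authors' own comparisons, deposited with log2 fold changes, p-values and scores, were not used.

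Counts were tested with edgeR 4.0.16 (limma 3.58.1, R 4.3.3): TMM normalization, filterByExpr, quasi-likelihood F test, 1 fit per comparison, Benjamini-Hochberg adjustment over all genes. The SE of a log2 fold change was its size over the root of F. CPM were scaled by TMM over the 44 libraries, with a prior count of 2 on the log2 scale. DESeq2 1.42.0 was an alternative, and figures used Python 3.11.15 with matplotlib 3.10.9. WT input libraries held 19795666 to 44046651 counts, WT IP 16480027 to 35856651, Mettl3KO input 30050178 to 35325482 and Mettl3KO IP 22056571 to 33126857.

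The members and the gene lists were chosen with earlier results of these data known. Named were the 4 Id genes, Mettl3, the 3 E proteins, from each other list up to 4 genes with an adjusted p under 0.05 and the largest absolute log2 fold change, and the 5 genes nearest each Id gene, and some genes that this rule names are not reported here.

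The main tests were unpaired. Input and IP libraries of a replicate were taken as pairs only in an alternative, the replicate block, because the study divided the sorted cells of 1 batch between them. Their deviations from the group means correlated at 0.0233 to 0.241 in 11 groups. Across genotypes, same-numbered libraries correlated at −0.00332 to 0.00774 and across WT populations at −0.198 to 0.132, with SSC, pBCSP and BCSP at 0.1 to 0.132 among themselves. These numbers were not taken as pairs, since no source gives them a shared origin and not every pair was over 0.1. Alternatives were DESeq2, its size factors in edgeR, no filter, shared fits, the replicate block and leaving out libraries. The test was run on simulated counts with 200 changed genes before use.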

Additional observations from a re-analysis of the deposited data

Results flagged for a closer look

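In the main fit the Id4 ratio of IP to input differed between the 2 sets of WT populations. Its log2 ratio in SSC, pBCSP and BCSP exceeded by 1.11 that in PCP, THY, BLSP, 6C3 and HEC (edgeR test of the difference itself, SE 0.32, adjusted p = 0.0389). The edgeR test over all 8 populations gave an adjusted p of 0.504. Over the main fit and the alternative settings of edgeR and DESeq2, the difference was 0.95 to 1.15 with adjusted p of 0.0111 to 0.0931. The call was lost with the size factors of DESeq2 and without the filter on low counts. The difference was 0.90 to 1.27 with each IP and input pair of libraries left out in turn, and the adjusted p was then 0.0220 to 0.20. HEC, at 1.07 and 0.92, lay with the stem and progenitor populations, which ranged from 0.31 to 1.89.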

How the results depend on the processing

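Each group held 2 libraries, so an arm of 1 library after leaving one out is assumed to vary like the others, and the tests over 8 populations were not repeated without a replicate number. Counts below are Id genes past the threshold, of 4. With the size factors of DESeq2 the WT ratio contrast of stem and progenitor over downstream populations gave 0 and THY 1, and DESeq2 gave THY 1. Without the filter on low counts the ratio contrast gave 0, HEC 0, the WT mRNA contrast 3, without Id4, and the averaged Mettl3KO contrast 4. The fit of all 32 WT libraries gave HEC 0. With the replicate block the ratio contrast gave 2 and the test of the ratio over 8 populations 1, both by adding Id2. The block also added Id1 to the averaged Mettl3KO contrast (adjusted p = 0.0470), where replicate numbers were not taken as pairs, and changed no other Id call.

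Leaving out single libraries gave 1 to 2 in pBCSP, BCSP and PCP, 0 to 1 in THY, 1 to 3 in 6C3, 0 to 2 in HEC, 0 to 2 in the ratio contrast, 0 to 4 in Mettl3KO pBCSP and 1 to 4 in the averaged Mettl3KO contrast. The sign turned in the values that follow. For Id3 the ratio contrast was −0.0298 with the size factors or DESeq2, −0.0083 without the filter and −0.051 to 0.2124 with pairs left out. Id1 in THY was 0.0002 and in BLSP 0.0033 by both DESeq2 settings. Id3 in the Mettl3KO ratio was 0.0238 in pBCSP and −0.0252 in BCSP with the block and −0.0174 in BCSP without the filter. With single libraries left out, Id1 ran from −0.2607 to 0.5107 in SSC, −0.2058 to 0.8211 in PCP, −0.3854 to 0.0587 in THY, −0.2695 to 0.0688 in BLSP and −0.2479 to 0.1139 in HEC. Id3 ran from −0.3738 to 0.4527 in SSC, −0.0023 to 1.1295 in PCP, −0.0651 to 0.447 in THY and −0.0264 to 0.5906 in BLSP. Id4 ran from −1.0129 to 0.2497 in PCP, −0.5474 to 0.5234 in THY, −0.2456 to 0.8957 in BLSP and −0.4956 to 0.0095 in 6C3. In Mettl3KO over WT mRNA of pBCSP, Id1 ran from −0.8912 to 0.1872, Id3 from −1.3431 to 0.072 and Id4 from −3.3166 to 0.092. The cause of these changes was not tested.

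Over all genes, the test of the ratio over 8 populations called 123 genes, against 1004 by DESeq2, 866 without the filter and 923 with the block. The ratio contrast called 1227 against 1953 by DESeq2. The fit of 32 libraries called 1865 in BCSP against 1070, and 1313 in BLSP against 2286. Mettl3KO pBCSP called 1339 genes, against 2069 in the fit of 12 libraries and 2244 without the filter, and the averaged contrast 1208 against 2408 by DESeq2 and 2200 without the filter. The Mettl3KO ratio called 0 genes by edgeR, and without the filter 90, 476 and 129 in SSC, pBCSP and BCSP.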
